A study of Mus musculus with 6 samples.

Results

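The fibroblast growth factor (FGF) group examined here holds the FGF ligands, their receptors, the adaptors and carriers that serve them, and the genes that FGF signalling switches on, its feedback inhibitors among them. Its members were chosen by name: 36 genes were listed, and 34 of them had a probe set whose platform symbol named that gene alone, among 18193 such genes on the array. The RNA came from retinal progenitor cells (RPCs) of the distal mouse retina at embryonic day 12 (E12), sorted by FACS for GFP. Pax6-deficient RPCs were Pax6 loxP/loxP; α-Cre, and control RPCs were Pax6 +/+; α-Cre. Both genotypes were on the ICR background, and both carried the α-Cre transgene, in which an enhancer of the peripheral retina and the P0 promoter of Pax6 drive Cre together with GFP in the peripheral part of the retina. Markers of cells outside the neural retina were also read on the arrays and differed between the groups, as given below. GFP reports the transgene and not the deletion of Pax6 itself. Each group had 3 pools of about 1800000 cells, and each pool was hybridised to 1 Affymetrix mouse expression array. A probe set is a group of short probes against 1 transcript, and its intensity, summarised by RMA (robust multi-array average), is given below as log2. A rise of 1 on this scale is a doubling, and all changes are mutant minus control.

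FGF ligands bind receptor tyrosine kinases together with heparan sulfate chains on the cell surface. The activated receptor docks the adaptor Frs2, which starts the RAS-ERK relay, and ERK then turns on ETS transcription factors of the Etv4 and Etv5 type as well as its own brakes, the Sprouty, Spred and dual-specificity phosphatase proteins. In the developing eye, FGF signalling favours neural retina over pigment epithelium and takes part in lens induction and in the start of retinal differentiation. The Fgf11 to Fgf14 proteins share the FGF fold but are not secreted: they stay in the cell and bind voltage-gated sodium channels.

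A probe set was called when the fold change was at least 1.5, p was under 0.05 and the Benjamini-Hochberg adjusted p from limma over all 45037 probe sets was under 0.10. Represented by its brightest probe set, 2 of the 34 measured FGF genes were called lower in Pax6-deficient RPCs, Fgf15 and Fgf13, where 0.918% of all genes were called lower. None of the 34 was called higher by limma, where 2.28% of all genes were; at an unadjusted p under 0.05, 5 members were higher and 4 were lower, beside 12.8% and 11.6% of all genes. Another gene, Fgfr2, passed the adjusted p but not the fold threshold, so that 3 of 34 had an adjusted p under 0.10 at any fold, beside 12.4% of all genes. The median log2 fold change of the group was 0.01, beside -0.01 over all genes, with 17 members above 0 and 17 below it. Within 0.2 of 0 on the log2 scale lay 20 of 34 members (58.8%), beside 74.1% of all genes. The arrays of both groups did not overlap for 14 members (41.2%), beside 33.4% of all genes, the mutant arrays lying above the control arrays for 9 members and below them for 5.

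Counting every probe set added 3 genes. The 34 genes were covered by 79 probe sets, 11 genes by 1 and 23 by several. Of these 79, 4 were called lower, beside 0.984% of all probe sets, and 1 was called higher, beside 1.67% of all. They were the single probe set of Fgf15, the brighter one of Fgf13, and the next brightest of Fgf9, Spred2 and Fgfr2. The brightest probe set of each of these last 3 genes was not called, so that their calls depended on which probe set stood for the gene.

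**Figure D1:**
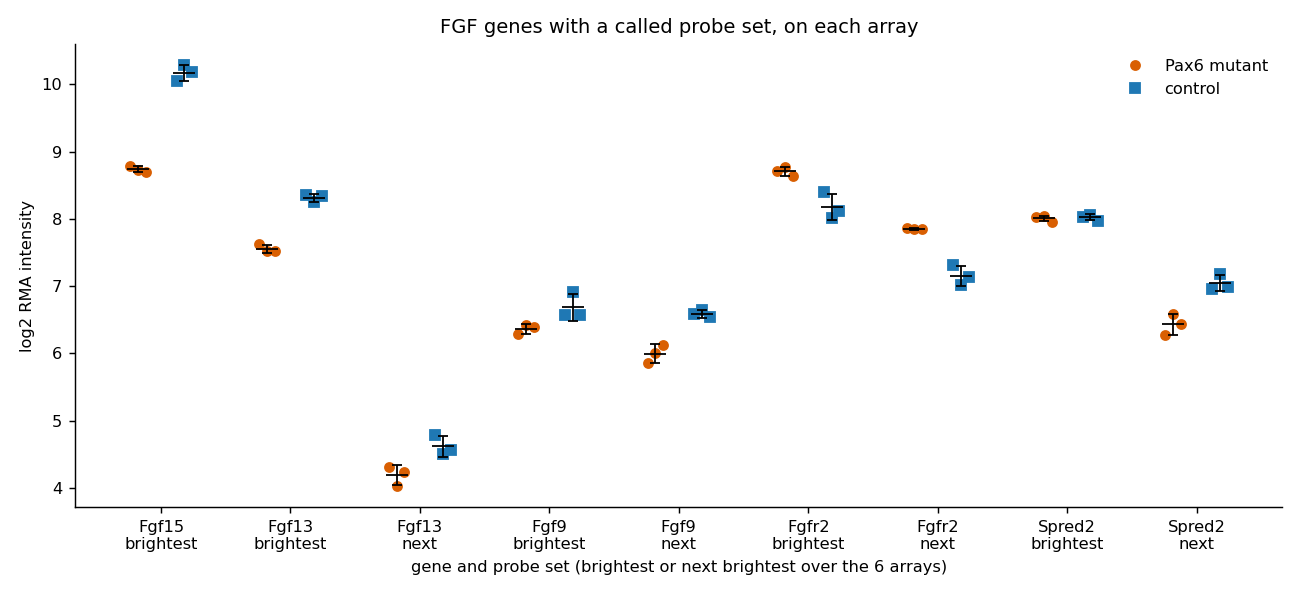
Log2 RMA intensity (vertical axis) of the brightest probe set of Fgf15, and of the brightest and next brightest of Fgf13, Fgf9, Fgfr2 and Spred2. Circles are the 3 arrays of Pax6 mutant RPCs and squares those of control RPCs, with bars for the mean ± SD. The mutant arrays lie below all control arrays for Fgf15, Fgf13 and Fgf9 and above them for Fgfr2, while the Spred2 groups overlap on the brightest probe set only.

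Fgf15, the mouse counterpart of human FGF19 and a secreted ligand known to be expressed by embryonic retinal and brain progenitors, had the largest change of all members. Its probe set read 8.79, 8.72 and 8.70 on the mutant arrays, against 10.04, 10.28 and 10.18 on the control arrays. The lowest control array was thus above the highest mutant array by more than the whole spread within either group. The mean was 8.74 ± 0.04 in Pax6-deficient RPCs and 10.17 ± 0.12 in control RPCs (SD, n = 3 each). The log2 fold change was -1.43 (standard error, SE, 0.08, 95% interval -1.61 to -1.25, limma adjusted p = 0.00134), so that Fgf15 was 2.70-fold lower in the mutant. It stayed called under each of the 14 alternatives that apply to it, with changes of -1.49 to -1.38. In bulk RNA of sorted pools, fewer cells of a type and less RNA per cell cannot be told apart.

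Fgf15 lies on chromosome 7 next to Fgf4 and Fgf3, 2 further ligand genes. In the RefSeq order of genes, none of the 8 nearest protein-coding genes, 4 on each side of Fgf15, was called by its brightest probe set. Over all genes, 2.28% were called higher and 0.918% lower, so that 8 genes would seldom hold a call. Ccnd1, 2 genes away, had a change of -0.30 (limma adjusted p = 0.0486), short of 1.5-fold. All its mutant arrays were below all control arrays. Fgf3, which induces the inner ear and is expressed in the early chick and fish retina, read 3.35, 3.54 and 3.55 in the mutant and 3.53, 4.09 and 3.78 in the control, with a change of -0.32 (limma adjusted p = 0.26). Its groups overlapped, and its intensity was below the array median of 3.70. Fgf4, a ligand of early embryo and limb that was not on the member list, had a change of -0.05 (limma adjusted p = 0.793).

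Fgf13 was the other called gene. It belongs to the intracellular FGF homologous factors and is known in neurons as a partner of sodium channels and of microtubules. Its brighter probe set read 7.62, 7.52 and 7.52 in Pax6-deficient RPCs, against 8.36, 8.25 and 8.33 in control RPCs. All mutant arrays were below all control arrays, and the mean was 7.56 ± 0.06 in mutant and 8.31 ± 0.06 in control RPCs (SD, n = 3 each). The log2 fold change was -0.76 (SE 0.06, 95% interval -0.91 to -0.61, limma adjusted p = 0.0035), which was 1.69-fold lower. The dimmer probe set read 4.31, 4.03 and 4.24 in the mutant and 4.79, 4.50 and 4.56 in the control. Its change of -0.42 (SE 0.11, limma adjusted p = 0.0713) had the same direction without reaching the fold threshold. The changes of both probe sets differed by 0.34 (p = 0.1, exact permutation test over the arrays, two-sided), the smallest p that 3 against 3 arrays allow.

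Fgf13 has 4 annotated transcription starts on the X chromosome, which give its proteins different N-terminal ends. They are shown because Fgf13 is the called member with promoter sequence at hand, and the array does not tell which start the fall concerned: the sources used here do not say what each probe set detects. Each line holds the 150 bases before a start, 5′ to 3′, from RefSeq (build GRCm38.p6), in the order of the starts along the gene, and capitals mark GC boxes (GGGCGG on either strand), a short motif of promoters without a TATA box.
Fgf13 chrX:59585573-59585722, minus strand: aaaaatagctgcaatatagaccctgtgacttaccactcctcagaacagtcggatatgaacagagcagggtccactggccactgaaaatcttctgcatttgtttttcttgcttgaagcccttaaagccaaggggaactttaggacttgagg
Fgf13 chrX:59567349-59567498, minus strand: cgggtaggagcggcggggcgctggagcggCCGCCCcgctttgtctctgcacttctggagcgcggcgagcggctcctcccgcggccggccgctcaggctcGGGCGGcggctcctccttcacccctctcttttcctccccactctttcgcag
Fgf13 chrX:59166089-59166238, minus strand: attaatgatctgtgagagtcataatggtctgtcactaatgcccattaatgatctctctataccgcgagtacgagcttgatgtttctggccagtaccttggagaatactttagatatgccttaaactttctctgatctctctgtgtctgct
Fgf13 chrX:59134437-59134586, minus strand: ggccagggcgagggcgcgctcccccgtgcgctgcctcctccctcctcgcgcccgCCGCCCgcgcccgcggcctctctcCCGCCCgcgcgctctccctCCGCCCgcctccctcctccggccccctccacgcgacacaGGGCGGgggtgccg
The starts fell into 2 kinds. The first and the third had no GC box in these 150 bases and a GC content of 44.67% and 40.67%, while the second and the fourth had 2 and 4 GC boxes and a GC content of 73.33% and 84%. The GC box was present in 35.7% of all 32851 RefSeq promoter windows of 300 bases, taken from 250 bases before to 50 after each start, and in 23 of the 37 windows of the 28 members found there. Those 37 windows were also richer in GC, with a median of 62.67% beside 52.67% over all windows, and some members gave several windows. The ETS core CCGGAAGT, searched on both strands, was in 2 of these 37 windows, those of Fgfrl1 and Frs2, beside 3.89% of all windows. The homeodomain core TAATTA was in none of the 37, beside 5.29% of all windows. Neither was in the Fgf13 windows, and none of these motifs overlaps another in the bases shown.

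The other intracellular factors were not called. Fgf12 had a change of 0.28 (limma adjusted p = 0.147), and its 3 probe sets were all above 0, at 0.09 to 0.38, with the mutant arrays above the control arrays on each. All but the brightest of these probe sets were below the array median, with means of 2.97 and 1.92. Fgf11 stood at 0.07 and its brightest probe set was below the array median. Fgf14 had probe sets of both signs, all of them below the array median. Its brightest stood at -0.18 (limma adjusted p = 0.171) and the next at 0.52 (SE 0.13, limma adjusted p = 0.0714). That probe set read 3.19, 2.75 and 2.77 in the mutant and 2.26, 2.48 and 2.41 in the control. Fgf14 thus gave no single direction at intensities this low.

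The 11 other ligands that act on neighbouring cells held no call by the brightest probe set and a median change of 0.06, within -0.32 to 0.29. Only Fgf9 of these 11 was above the array median. Fgf9 is expressed in the distal optic vesicle and neural retina, where it is known to set the border with the pigment epithelium. Its brightest probe set read 6.29, 6.42 and 6.39 in Pax6-deficient RPCs, against 6.57, 6.91 and 6.57 in control RPCs. The groups did not overlap, but the change of -0.32 (SE 0.11, limma adjusted p = 0.141) was not called. The next probe set read 5.85, 6.01 and 6.13 in the mutant and 6.59, 6.65 and 6.54 in the control. It was called lower, with a change of -0.59 (SE 0.08, 95% interval -0.79 to -0.39, limma adjusted p = 0.0136), 1.51-fold lower and so just past the fold threshold. Without mutant replicate 1 its change was -0.52 and without control replicate 2 it was -0.56, both short of 1.5-fold. Between the Fgf9 probe sets the change differed by -0.27 (p = 0.2, exact permutation test, two-sided).

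The 10 remaining ligands of this kind read at or below the median of the array. Fgf8, an early eye and midbrain organiser, had the largest positive change among them, 0.29 (limma adjusted p = 0.141). It read 2.97, 2.74 and 2.83 in the mutant and 2.64, 2.39 and 2.62 in the control, so that the arrays did not overlap. Its close relatives Fgf17 and Fgf18 stood at 0.17 and 0.15. Fgf10, a mesenchymal ligand of lung, limb and lacrimal gland, stood at 0.11 and Fgf5, a regulator of the hair cycle, at 0.08. Fgf1 stood at 0.06, Fgf22 at -0.02, Fgf7, the keratinocyte growth factor, at -0.03, and Fgf2, long used to turn pigment epithelium into retina in culture, at -0.04.

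**Figure D2:**
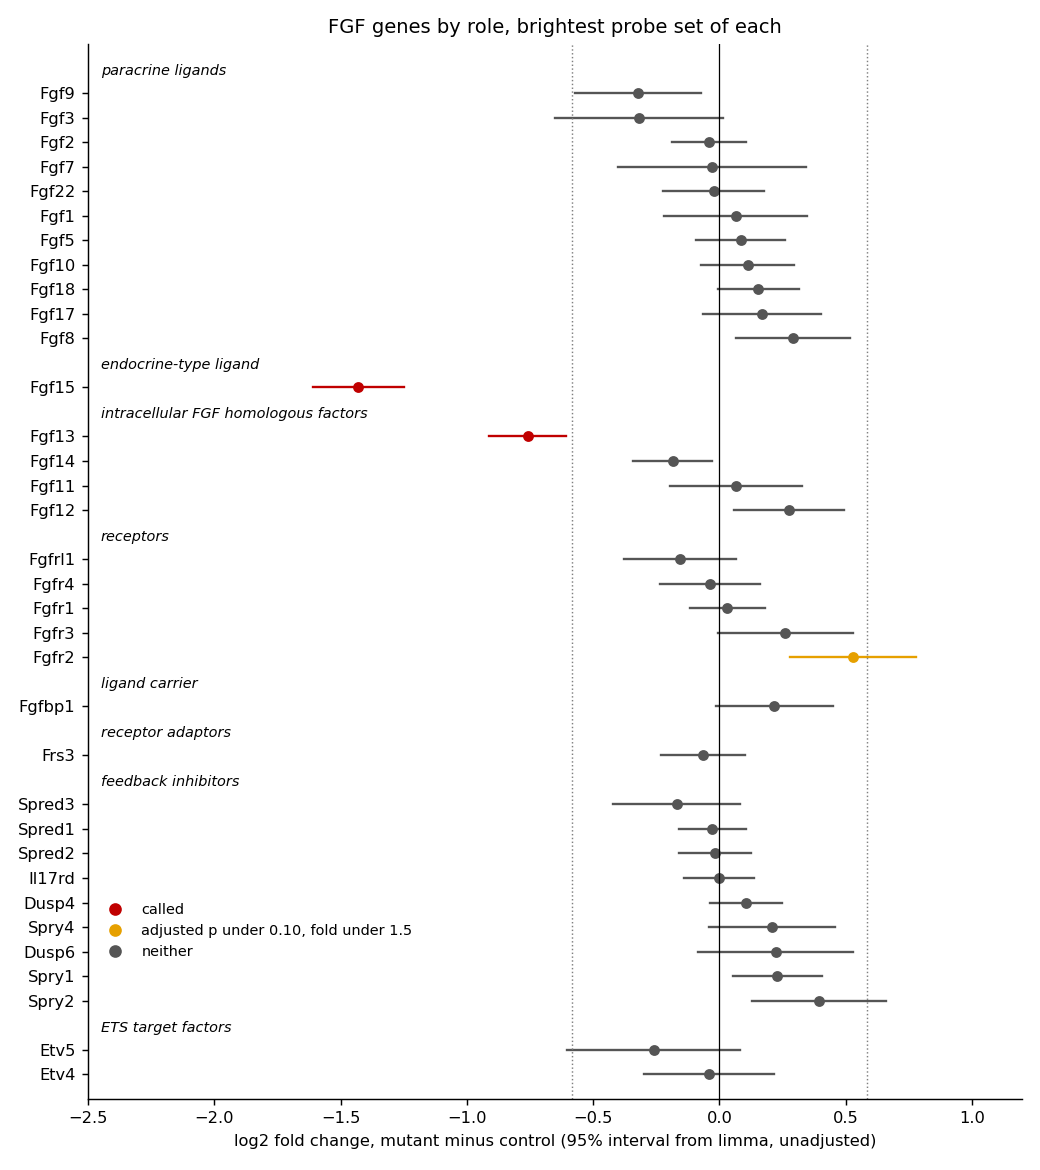
Log2 fold change, mutant minus control, of the brightest probe set of each of the 34 measured FGF genes (horizontal axis), grouped by role, with the 95% interval from limma. Red marks called genes and orange Fgfr2, with an adjusted p under 0.10 and a fold under 1.5; dotted lines stand at a 1.5-fold change. Fgf15 and Fgf13 lie apart from the rest, all of which are between -0.32 and 0.53.

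Of the receptors, Fgfr2 was the one with a change past the adjusted p threshold. Fgfr2 is a receptor tyrosine kinase of epithelia and, with Fgfr1, of the early optic cup and lens. Its brightest probe set read 8.71, 8.77 and 8.63 in Pax6-deficient RPCs, against 8.40, 8.02 and 8.11 in control RPCs. All mutant arrays were above all control arrays, with a mean of 8.70 ± 0.07 in mutant and 8.18 ± 0.20 in control RPCs (SD, n = 3 each). The change was 0.53 (SE 0.11, 95% interval 0.28 to 0.78, limma adjusted p = 0.038), a 1.44-fold difference. Without control replicate 1, the highest control, it was 0.64 and called, whereas without mutant replicate 1, without mutant replicate 2 and without moderation the limma adjusted p was 0.12, 0.125 and 0.158. The next probe set read 7.87, 7.85 and 7.84 in the mutant and 7.31, 7.02 and 7.14 in the control. It was called higher, with a change of 0.70 (SE 0.08, 95% interval 0.50 to 0.89, limma adjusted p = 0.00921), and stayed called under each alternative that applies to it, at 0.63 to 0.77. The dimmest probe set, below the array median, stood at -0.06. Both bright probe sets thus had the same direction, and their changes differed by 0.17 (p = 0.1, exact permutation test, two-sided). The sources used here do not say which splice forms of Fgfr2 they detect.

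The other receptors gave no call. Fgfr1, a receptor of neural progenitors, read 7.19, 7.23 and 7.32 in the mutant and 7.20, 7.19 and 7.25 in the control. Its change was 0.03 with a 95% interval of -0.12 to 0.18, well inside a 1.5-fold change in either direction. The comparison of Fgfr2 with Fgfr1 is one of values side by side, since the difference between the genes was not tested. Fgfr3, best known for restraining bone growth, read 5.52, 5.30 and 5.27 in the mutant and 5.31, 5.05 and 4.95 in the control, and its change was 0.26 (limma adjusted p = 0.249). Fgfr4 had 5 probe sets, all below the array median, and stood at -0.04. Fgfrl1, a receptor without a kinase domain, stood at -0.16, with its second probe set at -0.19. The carrier Fgfbp1, which releases FGFs from the matrix, stood at 0.22 (limma adjusted p = 0.266). Of the adaptors, Frs3 stood at -0.06. Frs2 had no probe set under its symbol, and it was not analysed here.

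The 9 measured feedback inhibitors held no call by their brightest probe sets, and their median change was 0.11, within -0.17 and 0.39. The 3 Sprouty genes among them, which encode ERK-induced brakes of receptor signalling, had values above 0 by their brightest probe sets, without a call. A further Sprouty gene of the modulator list, Spry3, named after its values were seen, stood at -0.18 (limma adjusted p = 0.332). Spry2 had the largest change of the 9: it read 6.05, 5.66 and 5.66 in Pax6-deficient RPCs and 5.35, 5.45 and 5.38 in control RPCs. Its change of 0.39 had a 95% interval of 0.13 to 0.66 and an adjusted p of 0.102 from limma, just outside the threshold. The dimmer Spry2 probe set, below the array median, stood at -0.05 with overlapping groups. Spry1 read 7.21, 7.10 and 7.14 in the mutant and 7.04, 6.90 and 6.83 in the control, a change of 0.23 (limma adjusted p = 0.14). Spry4, below the array median, stood at 0.21 (limma adjusted p = 0.317), and its dimmer probe sets stood at 0.01, -0.11 and 0.02.

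Dusp6, a phosphatase that removes the activating phosphates of ERK and a common readout of FGF signalling, read 7.53, 7.45 and 7.45 in the mutant and 7.39, 6.94 and 7.43 in the control. Its change was 0.22 (limma adjusted p = 0.385), and control replicate 2 was the low array. Dusp4, a nuclear phosphatase of the same family, read 6.05, 6.02 and 6.01 in the mutant and 5.96, 5.85 and 5.94 in the control, a change of 0.11 (limma adjusted p = 0.368). For Spry1, Spry2, Dusp4 and Dusp6 all mutant arrays were above all control arrays, 4 of the 9, beside 17% of all genes, and for none of the 9 below, beside 16.4% of all genes. Of the 9, 8 were above the array median. Of the 11270 genes above that median, 2671 had all mutant arrays above and 2375 had them below. Il17rd, a membrane inhibitor of FGF signalling also known as Sef, stood at 0.00 with a 95% interval of -0.14 to 0.14, well inside a 1.5-fold change in either direction.

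Of the Spred genes, which encode membrane-bound inhibitors of RAF activation, Spred2 gave conflicting probe sets. The brightest read 8.02, 8.04 and 7.95 in the mutant and 8.03, 8.06 and 7.97 in the control, a change of -0.02 with a 95% interval of -0.16 to 0.12. The next read 6.28, 6.58 and 6.44 in the mutant and 6.96, 7.18 and 6.99 in the control, and was called lower at -0.61 (SE 0.10, 95% interval -0.85 to -0.38, limma adjusted p = 0.0203). Without mutant replicate 1 or control replicate 2 this probe set's change was short of 1.5-fold, at -0.54 and -0.55. The changes of both probe sets differed by -0.60 (p = 0.1, exact permutation test, two-sided). The other 3 Spred2 probe sets were not called, at -0.27 (limma adjusted p = 0.06), -0.16 and -0.13. Spred1 had 8 probe sets, none of them called, and its brightest stood at -0.03. Spred3 stood at -0.17 (limma adjusted p = 0.418).

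The ETS factors Etv4 and Etv5 are transcribed in response to ERK and are read in many tissues as marks of FGF activity. Neither was called. Etv5 read 5.93 to 6.03 on the 3 arrays of Pax6-deficient RPCs and 6.03, 6.11 and 6.60 on those of control RPCs. The groups touched without overlapping, control replicate 3 was the high array, and the change was -0.26 (limma adjusted p = 0.361). Etv4 stood at -0.04 with overlapping groups. Etv1 was measured only by 3 probe sets shared with another gene and was left out.

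**Figure D3:**
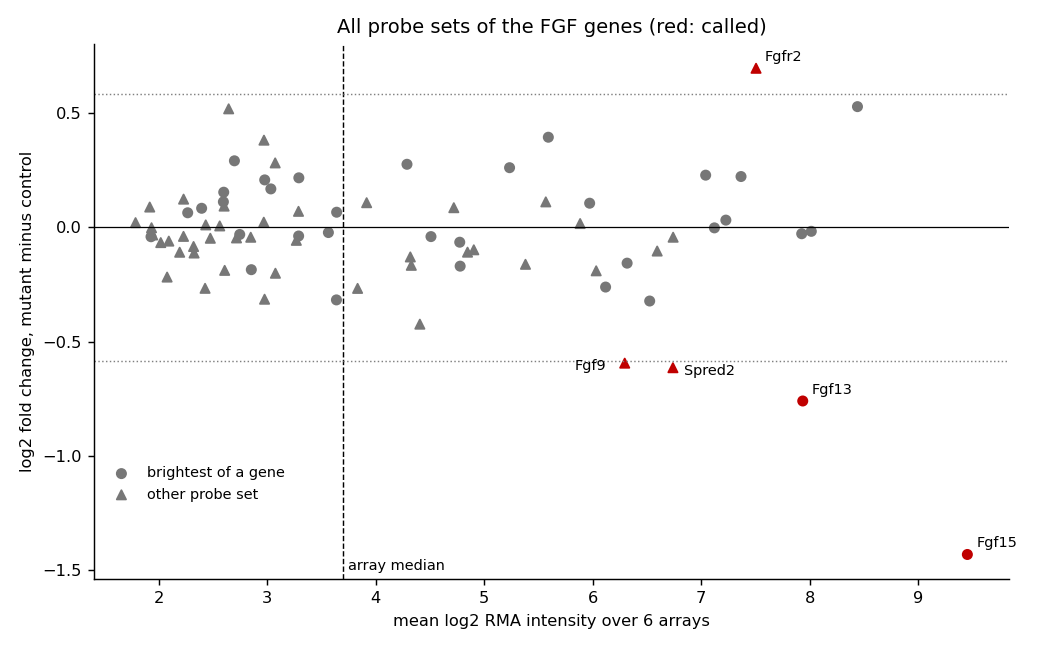
Log2 fold change, mutant minus control (vertical axis), of all 79 probe sets of the FGF genes against their mean log2 RMA intensity over the 6 arrays (horizontal axis). Circles are each gene's brightest probe set, triangles the others, and red marks called ones; the dashed line is the array median of 3.70 and dotted lines a 1.5-fold change. All 5 called probe sets lie above the array median.

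By the brightest probe set, 19 members were above the array median of 3.70 and 15 were at or below it, among them 10 of the 11 ligands described with Fgf9. The 15 dim members held no call and lay between -0.32 and 0.29. The 19 brighter members held both called genes, with a median change of -0.02. Over the whole array, 11270 of 18193 genes were above the array median. They held 376 of the 415 genes called higher and 151 of the 167 called lower.

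The other genes of the pathway were read from 3 further lists. The RAS-ERK relay, the kinases and exchange factors between the receptor and the nucleus, had 20 measured genes. None was called, where 2.28% of all genes were called higher and 0.918% lower. An unadjusted p under 0.05 in limma was found for 2, both higher, beside 12.8% of all genes. The changes ran from -0.17 to 0.23 with a median of 0.01. The genes of heparan sulfate synthesis and editing encode enzymes that make or modify the chains to which FGFs bind. They held no call among 14 and a median change of 0.05. An adjusted p under 0.10 in limma was found for 3 of them (21.4%), all higher in the mutant, where 7.15% of all genes were higher at that threshold. Of 31 further FGF modulators and ERK-induced genes 1 was called higher, beside 2.28% of all genes. It was Flrt1, a membrane protein that binds FGF receptors. It read 5.47, 5.72 and 5.73 in Pax6-deficient RPCs and 5.04, 4.88 and 4.88 in control RPCs, with no overlap. Its change was 0.71 (SE 0.09, limma adjusted p = 0.0109). The call was lost with 16 added to the linear values (0.50) and by the median over its probe sets (0.42). The list held 8 genes with an adjusted p under 0.10 (25.8%), all above 0, and its median was -0.01.

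Markers of cell types also differed between the groups. Their calls stand beside 2.28% of all genes called higher and 0.918% called lower. Pax6 itself had 5 probe sets, of which 1 was called lower, at -1.60 (limma adjusted p = 0.00329), and 4 were not called, at -0.22 to 0.10; the sources used here do not say which of them lie in the deleted exons. The summed linear intensity of 11 retinal progenitor markers was 5245 to 5536 on the mutant arrays and 7960 to 8359 on the control arrays, and 4 of them were called lower, Hes5, Nr2e1 and Dkk3 with the largest changes at -1.30, -1.06 and -1.03. That of 13 ganglion cell and newborn neuron markers, a class in which Fgf13 is also expressed, was 346 to 411 in the mutant and 545 to 879 in the control, with 5 called lower. Markers of cells outside the neural retina went the other way. The sum over 14 lens and surface ectoderm genes, tissues that express Fgfr2, was 4878 to 5187 in the mutant and 2680 to 3903 in the control, with 3 called higher. That over 12 pigment epithelium genes was 9370 to 9391 in the mutant and 5993 to 7225 in the control, with 5 called higher. The 13 mesenchyme and neural crest genes summed to 1133 to 1461 in the mutant and 775 to 794 in the control, with 6 called higher. The 12 endothelium and blood genes summed to 3336 to 3674 in the mutant and 1683 to 2559 in the control, with 5 called higher and 7 not called. In every one of these lists, linear sums weigh the brightest genes most. Among the endothelium and blood genes Hbb-bh1, a haemoglobin gene, was by far the brightest. It read 11.04, 10.96 and 11.22 in the mutant and 10.58, 9.75 and 9.89 in the control. The 10 ciliary margin genes summed to 2933 to 2978 in the mutant and 2761 to 2824 in the control, with 3 called higher and 1 lower. Their changes ran from -0.71 to 1.57 with a median of 0.03, which the sum does not show. None of these markers was at 0 on any array, but RMA gives every probe set an intensity, so this does not show which cell types were present. At or below the array median lay 2 markers each of the lens and mesenchyme lists. The ganglion cell, pigment epithelium, endothelium and ciliary margin lists each held 1 such marker. The part of the marker shifts in the changes of Fgf15, Fgf13, Fgf9 and Fgfr2 was not tested.

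**Figure D4:**
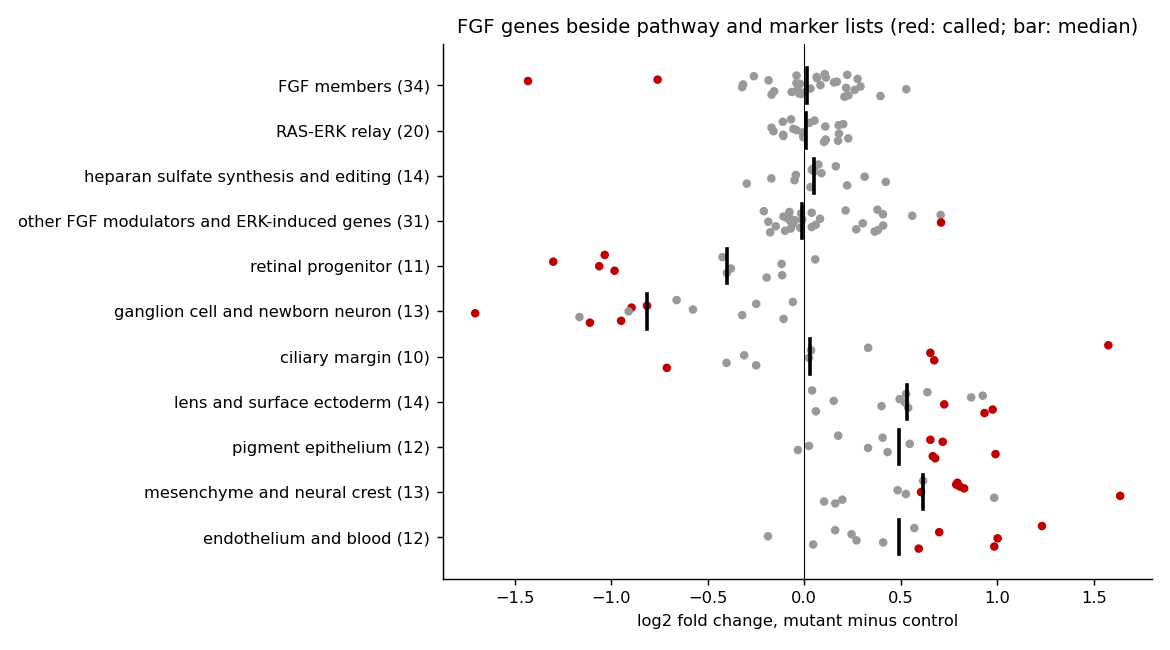
Log2 fold change, mutant minus control (horizontal axis), of each gene by its brightest probe set, in the FGF group, 3 pathway lists and 7 marker lists, with the number of genes measured in parentheses. Red points are called and black bars are list medians. The FGF members centre on 0.01 with 2 called genes on the left, while the progenitor and neuron lists have medians of -0.40 and -0.81 and the lens, pigment epithelium, mesenchyme and endothelium lists medians of 0.49 to 0.62.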

How the data were processed

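RNA of 3 mutant and 3 control pools, described as biological repeats, was hybridised to 6 Affymetrix mouse expression arrays. The authors summarised probes by RMA, with Affymetrix Expression Console also named in the submitters' processing notes, and deposited the values as linear intensity. Log2 was taken of the deposited intensities. After 64 control probe sets were left out, 45037 were fitted with limma 3.58.1 in R 4.3.3 (lmFit and eBayes, mutant against control, no covariate), and p-values were adjusted over all of them by Benjamini-Hochberg. The thresholds are those of the methods, which name no test statistic for the comparison apart from a further check. Probe sets were named by the platform annotation: 34945 had 1 symbol, 932 had several and 9160 had none; only the first were used for genes. Each gene was read from its brightest probe set by mean log2 intensity, which was also the brightest by linear means for all 34 members. The fit was tested on simulated data. Arrays have no sequencing depth, and the number of them limits the precision. The p-values set the difference between the groups against the spread between pools, moderated by limma over all probe sets.

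The members and gene lists were chosen with earlier results of these data known. The naming rule was: all 36 members accounted for, those with a called probe set in full, those with an adjusted p under 0.10 with their change, others by role; outside the members, the called genes of the pathway lists, Pax6 and at most 3 called genes of each marker list. Fgf4 and Ccnd1 were named as neighbours of Fgf15, after their values were seen. Alternatives were other scalings, filters, offsets, test settings, probe set choices, a replicate block and leaving out each array. Promoter windows were matched by symbol.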

Additional observations from a re-analysis of the deposited data

How the results depend on the processing

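Fgf15 and Fgf13 were called lower by limma under every alternative run, and the called Fgfr2 probe set was called higher under every one that applies to it. Fgf13 ranged from -0.79 to -0.59. The weakest value, by the median over its probe sets, was just past the 1.5-fold threshold. The number of members called higher was 0, but 1 when each gene was taken as the median over its probe sets, 1 when any probe set could give the call (chosen after seeing the data), and 0 to 1 leaving out single arrays; the gene was Fgfr2 each time. The number called lower was 2, but 4 by any probe set, and 2 in every fit without 1 array. Over all genes, 415 were called higher, but 199 with 16 added to the linear values and 160 without moderation, with a range of 288 to 451 leaving out single arrays. Those called lower were 167, but 82 with 16 added, 87 without moderation and 273 by any probe set, with a range of 144 to 192. With 16 added, the called probe sets of Fgf9 (-0.49) and Spred2 (-0.53) lost the call, as did Flrt1 (0.50). That of Fgf9 also lost it with each array's median subtracted (-0.58) and with array weights (-0.58), that of Spred2 without moderation (limma adjusted p = 0.119), and Flrt1 by the median over probe sets (0.42). The brightest Spred2 probe set, at -0.02, ranged from -0.0419 to 0.0081 leaving out single arrays and was above 0, at 0.0081, without mutant replicate 3 and, at 0.0017, without control replicate 2. Same-numbered pools did not deviate together (correlations of -0.0106, -0.000638 and -0.00848); with a replicate block all the same, 389 genes were called higher and 162 lower, and 0 and 2 of the members. The causes were not tested. The number of arrays, 3 a group, limits the precision, and 15 of 34 members were at or below the array median.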
